A study of Mus musculus with 3 samples.

Results

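Transcripts of ion channels were read in the neural retina of 10-day-old wild-type mice. They were those of potassium channels, voltage-gated sodium and calcium channels, hyperpolarization-activated HCN channels and CLC chloride channels. The potassium channels include calcium-activated, inward rectifier and tandem-pore families beside the voltage-gated ones. The members were the non-control probe sets whose single gene symbol in the platform annotation begins with Kcn, Cacn or Clcn, or with Scn or Hcn followed by a digit. This rule gave 88 of 12422 probe sets, which belong to 68 of 8251 named genes. It uses names only and no measured value.

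Each sample was total RNA from the pooled neural retinas of 3 to 4 mice, hybridised to an Affymetrix U74Av2 array, on which a probe set is a group of short probes for 1 transcript. The 3 pools form a single group, so there is no second condition to compare with. The labels name no treatment, and all mice were of mixed 129/SvEv and C57BL/6 background, wild type, aged postnatal day 10, and littermates of animals without Rp1, which are not analysed here. Retinas were taken between 1 and 2 pm. Pools 2 and 3 carry the name Rp1 in their titles although their descriptions call them wild type. Pool numbers are names only, given by accession. Nothing in the labels says whether pools come from separate animals, so their spread may be partly technical, and the small number of arrays limits the precision of every value.

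Signals are in the deposited linear intensity units. A signal was called above background when it exceeded the limit of its array, the 90th percentile of 94 probe sets whose 77 genes belong to other tissues. The limits of arrays 1, 2 and 3 were 404.0, 508.8 and 388.5. A set under the limit is called not above background, which does not mean that its gene is silent. Probe sets differ in how strongly they bind, so fold differences are given only within a set, between pools. A set's place against the limit, or beside another set, may depend in part on that binding. Rod markers were present, with 13 of 14 rod sets (92.9%) above the limit on every array, against 28.3% of all sets. Lens sets summed to 272123, 47211 and 487881 in pools 1, 2 and 3, so the pools differed in lens RNA. In such bulk samples, fewer cells of a type and less RNA per cell cannot be told apart.

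Ion channels set how retinal neurons turn light into voltage and voltage into transmitter release. Potassium channels hold and restore the resting potential, sodium channels carry the spikes of ganglion cells and some amacrine cells, and calcium channels at the ribbon synapse couple the photoreceptor's voltage to glutamate release. HCN channels open on hyperpolarization and shape the response of photoreceptors and bipolar cells to light. CLC proteins conduct chloride at the plasma membrane or exchange chloride for protons in endosomes and lysosomes.

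Few channel transcripts stood above background. Of the 88 probe sets, 14 (15.9%) exceeded the limit on all 3 arrays, against 28.3% of all probe sets, and 61 (69.3%) exceeded it on none, against 58.3%. The other 13 exceeded it on 1 or 2 arrays. By mean signal 21 sets were above the mean limit, against 34.7% of all sets. Of the 68 genes, 10 (14.7%) had a set above the limit on every array, against 34.9% of named genes. These 10 were Cacnb2, Clcn3, Clcn4, Clcn7, Hcn2, Hcn3, Kcna5, Kcnh2, Kcnma1 and Kcnq1.

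The families differed in these shares. The CLC family gave 7 of its 13 sets above the limit on all arrays, against 28.3% of all probe sets. Without this family, 7 of the other 75 sets (9.33%) were. Of the 7 CLC sets, 4 belong to 1 gene, Clcn3. Counted by gene, 3 of the 6 CLC genes had such a set, against 34.9% of named genes. The HCN family gave 2 of 3 sets. Potassium channels together gave 4 of 51 sets (7.84%) and calcium channels 1 of 13 (7.69%). Of the 94 other-tissue sets that define the limit, 7 (7.45%) also exceeded it on all arrays, a share close to these. None of the 8 sodium channel sets exceeded the limit on any array. Over the whole array, 58.3% of sets likewise exceeded it nowhere. Counts in families this small describe the array's sets and were not tested against each other.

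**Figure D1:**
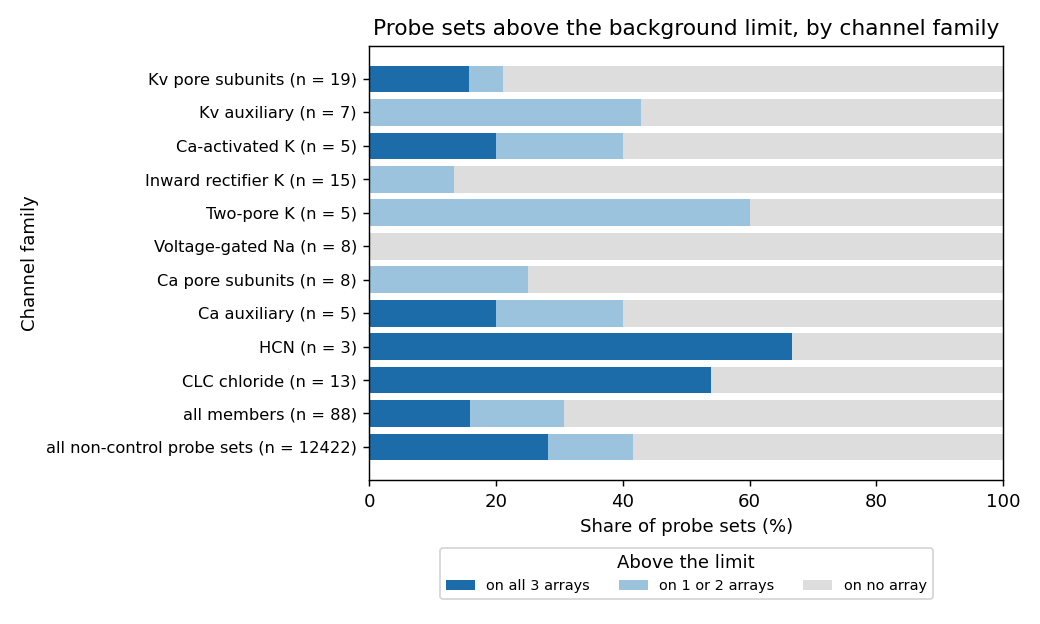
Share of probe sets (%, horizontal axis) above the background limit on all 3 arrays, on 1 or 2, or on none, for each channel family (vertical axis, n = probe sets) and for all 88 members and all 12422 sets. The CLC bar has 7 of 13 sets above the limit on all arrays and the sodium channel bar has none.

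Chloride channels and exchangers gave 7 of the 14 sets above the limit on all arrays. Clcn3 encodes an endosomal and synaptic-vesicle exchanger whose loss in mice is known to lead to degeneration of the retina. All 4 of its probe sets were above the limit in every pool. The set 102786_at read 3877, 5226 and 6130.3 in pools 1, 2 and 3, a mean of 5078 ± 1134 (SD, n = 3). The set 94463_at read 707, 857 and 1517, a range of 2.15-fold. The set 94464_at read 1041, 1148 and 1419, and the set 94465_g_at read 607, 989.9 and 807. Pool 1 was lowest in all 4 sets, and pool 3 was highest in 3 of them. Rod sets moved alike, with summed signals of 81110, 86759 and 125425 in pools 1, 2 and 3, and their part in the Clcn3 values was not tested. Without pool 3 the range of 94463_at shrank from 1.10 to 0.28 on the log2 scale.

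Clcn4, a related endosomal exchanger, gave readings that depended on the probe set. The set 104704_at varied little, reading 1157.5, 1230.0 and 1097, with a mean of 1162 ± 66.5 (SD, n = 3). The set 99672_at read 524, 2374 and 2051, a range of 4.53-fold and the widest among channel sets above the limit on average. Its width rests on pool 1, since pools 2 and 3 alone gave a range of 0.21 on the log2 scale in place of 2.18. The same drop in pool 1 was absent from the other Clcn4 set.

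Clcn7, the lysosomal exchanger that is also known for bone resorption, read 1423, 1191 and 1031 on the set 104391_s_at. Its other set, 104392_at, stayed under the limit of every array with 134, 184 and 264. The first set was highest in pool 1 and the second in pool 3. Clcn5, an endosomal exchanger of kidney, read 222, 336 and 283 on 101913_at and was not above background. Clcn2, a plasma membrane channel whose loss also leads to retinal degeneration in mice, was not above background with 99.1, 86.9 and 191. Both sets of Clcn1, the chloride channel of skeletal muscle, stayed under the limit as well.

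**Figure D2:**
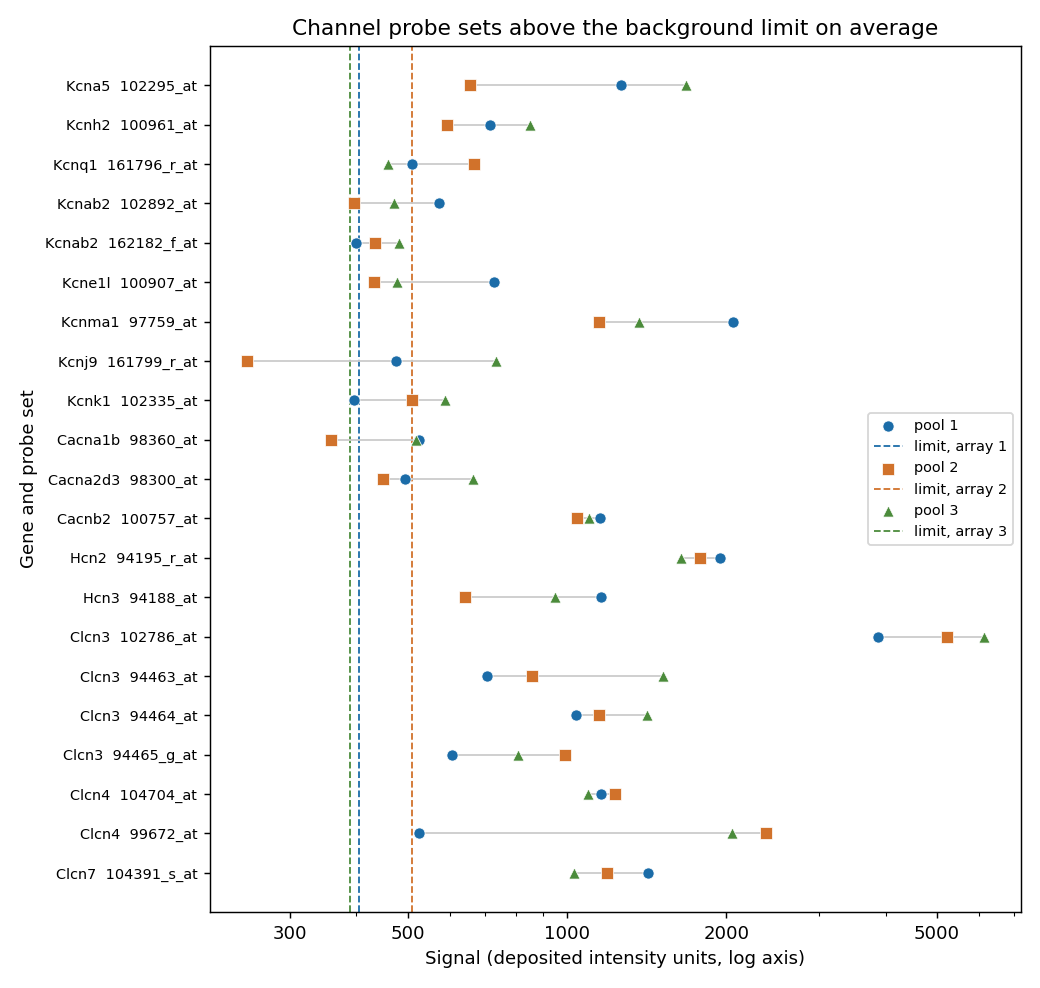
Signal in each of the 3 pools (horizontal log axis, deposited intensity units) for the 21 channel probe sets above the mean background limit (vertical axis), with dashed lines at the limits of arrays 1, 2 and 3 (404.0, 508.8 and 388.5). Clcn4 99672_at spans the widest range, from 524 to 2374, and Cacnb2 one of the narrowest, from 1045 to 1156. Levels are to be compared along a row, not between rows.

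HCN channels were represented by Hcn2 and Hcn3. Hcn2 is known from ON bipolar cells. Its set 94195_r_at read 1949, 1787.5 and 1641, a mean of 1792.5 ± 154 (SD, n = 3), with pools within 1.19-fold of each other. Its set 94194_s_at, at 147, 95 and 148, was under the limit of every array. The suffix r marks a set for which some rules of probe choice were dropped, and which of the sets reports Hcn2 was not tested. Hcn3 read 1159, 642 and 950.5, above the limit in every pool, with pool 2 lowest.

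Among calcium channel subunits, the auxiliary subunit Cacnb2 was the closest between pools of the sets above the limit on all arrays. Beta subunits carry the pore to the membrane, and Cacnb2 is needed for the photoreceptor's ribbon synapse in mice. It read 1156, 1045 and 1099 in pools 1, 2 and 3, a mean of 1099.9 ± 55.7 (SD, n = 3). The SD of its log2 signal was 0.07. Cacna2d3, an extracellular alpha2delta subunit, read 493, 449 and 664 and exceeded the limit in pools 1 and 3. Cacng2, a gamma subunit that acts on AMPA receptors, was not above background with 389.8, 292.0 and 333. Cacna2d1 read 211, 146 and 25.1, also not above background.

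No pore-forming calcium channel subunit exceeded the limit on all arrays. Cacna1b, the N-type channel of presynaptic terminals, came closest with 526, 359 and 519, above the limit in pools 1 and 3. Cacna1c, an L-type channel, read 286, 357 and 466 and exceeded it in pool 3 alone. The P/Q-type gene Cacna1a read 177, 225 and 133 and was above background in no pool. The T-type genes Cacna1g and Cacna1h and the R-type gene Cacna1e were likewise under the limit in every pool. Cacna1s, the channel of skeletal muscle, read 104, 107 and 114, and the muscle gamma subunit Cacng1 read 88.4, 75.4 and 137. In these libraries 19 of 24 skeletal muscle sets (79.2%) were above the limit on no array, against 58.3% of all sets. The muscle sets of Ckm, Acta1, Myog and Tnni2 also help define the limit, so this count is partly fixed by it. The summed muscle signal ranged from 4488 to 4929. Cacna1f and Cacna1d, the L-type genes best known from photoreceptors, and the retinal subunit Cacna2d4 have no probe set of their own name here and were not analysed.

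Voltage-gated potassium channel subunits were mostly dim. Of 19 sets for pore-forming subunits, 15 (78.9%) were above the limit in no pool, against 58.3% of all sets. Kcnh2, the channel of the ERG current, stood above it in all with 714, 592 and 849.7, a mean of 719 ± 129 (SD, n = 3). Kcna5, a delayed rectifier of the Shaker family, read 1264.5, 657 and 1680.0 on the set 102295_at, a range of 2.56-fold with pool 2 lowest and pool 3 highest. Lens sets took the same order. Endothelial and mural markers summed to 2658, 2811 and 4169, lowest in pool 1. Of their 15 sets, 1 (6.67%) was above the limit on all arrays, against 28.3% of all sets. The part of lens RNA in the Kcna5 values was not tested. Without pool 2 the range of this set was 0.41 on the log2 scale in place of 1.35. A second Kcna5 set, 161775_f_at, read 17.8, 26.3 and 33.7.

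Kcnq1, whose channel repolarizes the heart with the subunit Kcne1, read 509.6, 667 and 459 on the set 161796_r_at and was not above background on 99322_at, with at most 178. Kcne1 itself read 59.3, 132 and 46.9. Kcnd3, an A-type channel, exceeded the limit in pool 2 alone, with 295, 578 and 254. The neuronal channels Kcna1, with 187, 50.2 and 264, and Kcnc1, with 27, 72.2 and 158, were above background in no pool. Kcna2, Kcna3, Kcna4, Kcna6, Kcna7, Kcnd1, Kcnd2, Kcnh1, Kcns1 and Kcns2 were also under the limit throughout.

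Of the auxiliary potassium channel subunits, none was above the limit on all arrays. Kcnab2, a cytoplasmic beta subunit, lay close to it on both of its sets. The set 102892_at read 572, 396 and 471, and the set 162182_f_at read 399, 434 and 482. Kcne1l, a small membrane subunit, read 728, 431 and 476, above the limit in pools 1 and 3. Kcnab1 and Kcnab3 were above background in no pool.

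Calcium-activated channels were led by Kcnma1, the pore of the large-conductance BK channel, which is known from photoreceptor and amacrine cells. It read 2063, 1152 and 1368 in pools 1, 2 and 3, a mean of 1527 ± 476 (SD, n = 3), and was above the limit in each pool. Kcnmb1, the BK beta subunit of smooth muscle, read 16.4, 36.4 and 129.5 and was not above background. Kcnn1, a small-conductance channel, read 632, 237 and 402, above the limit in pools 1 and 3 and at least 1.24-fold higher in pool 1 than in pool 2. Kcnn4 stayed just under it with 311, 400.4 and 378, and Kcnu1, a channel of sperm, read 95.7, 54.1 and 79.5.

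Inward rectifiers, which hold the resting potential near that of potassium, were under the limit almost throughout. Of their 15 sets, 13 (86.7%) exceeded it in no pool, against 58.3% of all sets. Kcnj9, a G-protein-gated subunit of neurons, read 474, 248 and 733 on 161799_r_at, above the limit in pools 1 and 3 and at least 1.44-fold higher in pool 3 than in pool 2. Its other set, 98332_at, took another order, at 310.0, 447 and 414. Kcnj2 read 9.70, 22.6 and 18.3, and the 2 sets of Kcnj1, a kidney channel, read at most 27.6 and 121.0. Kcnj10 and Kcnj13, the rectifiers of Müller glia and pigment epithelium, have no set of their own name here and were not analysed.

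Tandem-pore channels, which pass a background potassium leak, had no set above the limit on all arrays. Kcnk1 read 396, 510.4 and 588 and exceeded it in pools 2 and 3. Kcnk4, a mechanically gated channel of neurons, kept to 373, 362 and 396, and Kcnk7 read 317, 218 and 421, each above the limit in pool 3 alone. Kcnk2 was close between pools and not above background, at 216, 221 and 240.4. Kcnk3 read 29.5, 92.2 and 12.

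Sodium channels were the family with no set above background in any pool. Scn8a, the main channel of mature axon initial segments, had the highest mean of them, with 329, 254 and 357 on 104504_at, and its set 104505_at read 7.90, 21.8 and 4.70. Scn1a read 205, 313 and 371 on 162255_s_at and 86.8, 208 and 178 on 94201_at. The developmental channel Scn3a, the glial and sensory gene Scn7a, and Scn9a and Scn10a of peripheral sensory neurons all read at most 112 in any pool. In the same libraries 9 of 15 amacrine and ganglion cell sets (60%) were above the limit on all arrays, against 28.3% of all sets.

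Sets near the limit show how the counts turn on it. Just above the mean limit of 434 lay Kcnab2 162182_f_at with a mean of 438, Cacna1b with 468 and Kcnab2 102892_at with 479.7. Just below lay Kcnn1 with 424, Kcnj9 98332_at with 390.4 and Kcnk4 with 377. With the limit at the 85th percentile of the other-tissue sets, 23 channel sets exceeded it on all arrays, against 36.2% of all sets, and at the 95th percentile 10 did, against 21.8%. Among the 61 sets above the limit on no array, 27 (44.3%) read above the median other-tissue set in every pool, against 40.2% of all 7248 such sets. Another 9 (14.8%) read below it in every pool, against 21.4%.

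The channel sets' spread between pools was set beside that of the whole array. The 21 channel sets above the limit on average had a median SD of log2 signal of 0.29, against 0.26 for all 4311 such sets, and a median range of 1.48-fold, against 1.40-fold. The sets of Clcn3 (94463_at), Clcn4 (99672_at), Kcna5 (102295_at) and Kcnj9 (161799_r_at) had a range over 1 log2 unit (2-fold) as read. The Kcnj9 range counts a reading not above background, and its bound is at least 1.44-fold. These are 4 of 21, against 10.8% of all sets above the limit on average, and without pools 1, 2 or 3 in turn the count was 2, 2 and 1. Over these 21 sets Pearson's r of log2 signal was 0.73 for pool 1 with pool 2, 0.77 for pool 1 with pool 3 and 0.86 for pool 2 with pool 3, against 0.90, 0.91 and 0.88 for all sets above the limit on average. Over the 88 sets it was 0.88, 0.87 and 0.83, against 0.90, 0.88 and 0.87 for all probe sets. These values describe sets read on shared arrays.

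**Figure D3:**
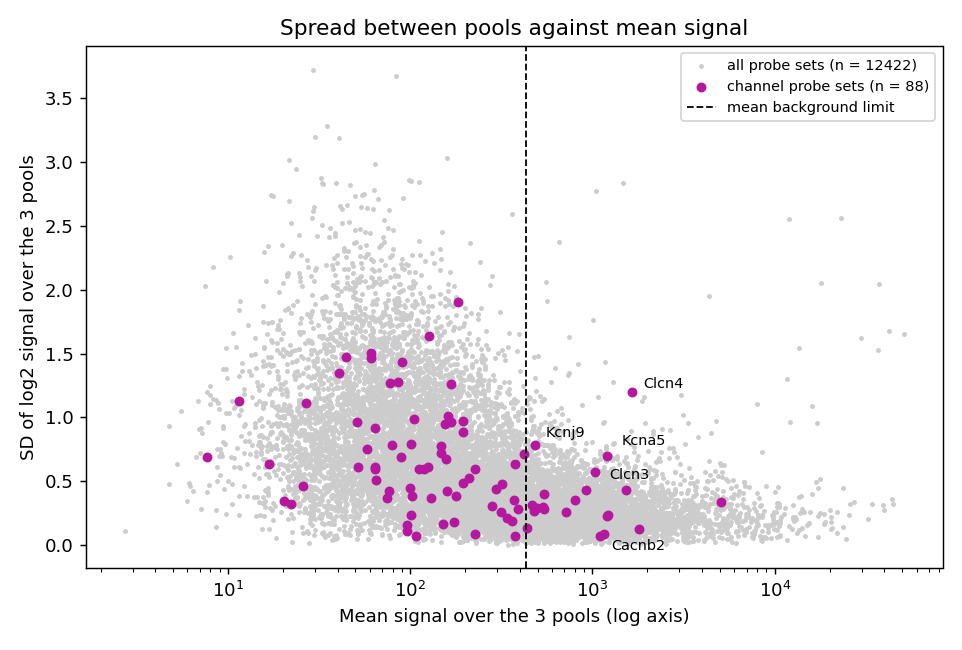
SD of log2 signal over the 3 pools (vertical axis) against mean signal (horizontal log axis) for all 12422 probe sets in grey and the 88 channel sets in purple, with the mean background limit of 434 dashed. Clcn4 (99672_at) has an SD of 1.20, Cacnb2 one of 0.07, and most channel sets lie left of the limit, where spread is wide.

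As a whole the channel sets leaned toward pool 3, though that pool held the highest median in only 4 of 10 families. The median over the 88 sets of log2 signal minus the set's own mean was -0.05 in pool 1, -0.04 in pool 2 and 0.15 in pool 3, while over all probe sets it was -0.05, 0.08 and -0.01. Of 10 families, 4 had their highest median in pool 3, namely the pore-forming Kv, tandem-pore, pore-forming calcium and CLC sets. The calcium-activated, HCN and both auxiliary families were highest in pool 1, and the inward rectifiers and sodium channels in pool 2. The pool 3 median was slightly negative in the auxiliary potassium (-0.009) and auxiliary calcium (-0.0005) families and positive in every other family. Of the 88 sets, 41 (46.6%) were highest in pool 3, against 33.1% of all sets. Among the 21 above the limit on average, 9 (42.9%) were highest in pool 3, 8 (38.1%) in pool 1 and 4 (19%) in pool 2. Over all 4311 such sets these shares were 32.3%, 34.1% and 33.6%. For the 21 channel sets the median deviation in pool 3 was 0.14, against -0.02 for all sets above the limit on average. Rod, Müller glia and lens sets were also highest in pool 3 by their medians, with deviations of 0.35, 0.34 and 1.26. So were endothelial and mural (0.36), blood (0.33), pigment epithelium (0.31), amacrine and ganglion (0.19), muscle (0.13) and bipolar (0.10) sets. Some of these orders were weak. The median in pool 2 was close behind for pigment epithelium (0.29) and bipolar (0.07) sets, as was that in pool 1 for blood (0.29). By summed signal, blood was highest in pool 1, with 22030, 4736 and 15203 in pools 1, 2 and 3. Summed muscle signal was highest in pool 2, with 4488, 4929 and 4785. Cone and immune sets were highest in pool 2. The Actb control's 3′ over 5′ signal, a sign of RNA integrity, was 1.20, 1.44 and 1.69 in pools 1, 2 and 3, while that of Gapdh was 0.95, 0.88 and 0.93. The part of any of these in the channels' lean was not tested.

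**Figure D4:**
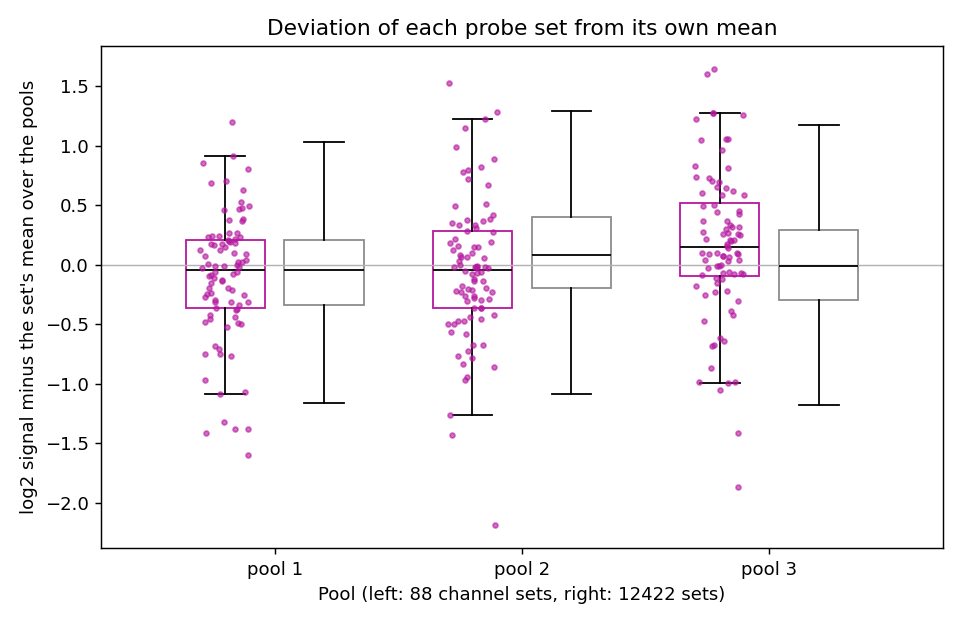
Deviation of each probe set's log2 signal from its own mean over the pools (vertical axis) in pools 1, 2 and 3 (horizontal axis), for the 88 channel sets (points and left boxes) and all 12422 sets (right boxes); boxes span the quartiles, the line is the median and whiskers reach the last value within 1.5 box lengths. The channel median is 0.15 in pool 3, where that of all sets is -0.01.

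Some channel genes gave a different answer on each probe set. Of 18 genes with several sets, 4 (22.2%) had a set above the limit on all arrays and another on none, namely Clcn7, Hcn2, Kcna5 and Kcnq1. Across the array this held for 584 of 2073 such genes (28.2%). The highest pool was the same for all sets of a gene in 4 of 18 channel genes, against 32.3% of such genes on the array. The 3 CLC genes above the limit thus rest on unequal support, with 4 of 4 sets for Clcn3, 2 of 2 for Clcn4 and 1 of 2 for Clcn7. The Clcn3 sets 94464_at and 94465_g_at were designed on the same sequence record, so they are not separate support.

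**Figure D5:**
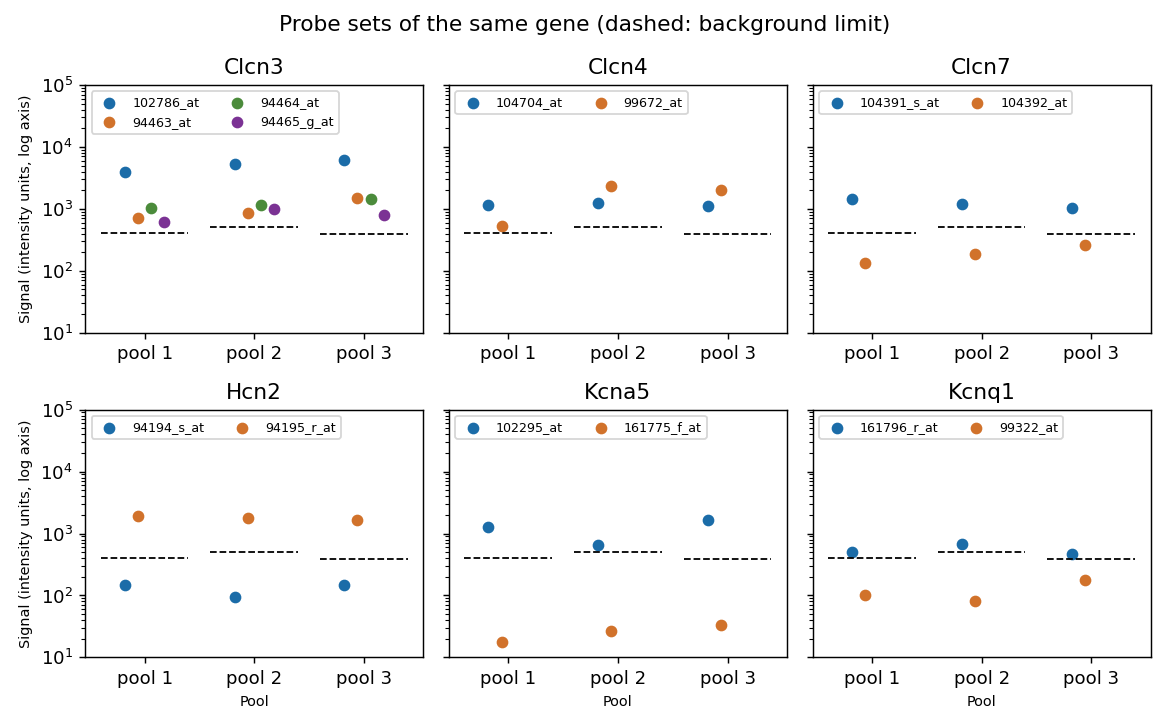
Signal (vertical log axis, intensity units) of every probe set of 6 channel genes in pools 1, 2 and 3 (horizontal axis), 1 colour per set, with the background limit of each array dashed. All sets of Clcn3 and Clcn4 lie above the limit, while Clcn7, Hcn2, Kcna5 and Kcnq1 each have a set above it and another below it in every pool.

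The sequence before the start of transcription is shown for the channels with most and fewest CG dinucleotides among those above the limit everywhere and those above it nowhere. These dinucleotides are the sites of DNA methylation and cluster in promoters of broadly used genes. RefSeq promoters (GRCm38.p6) were found for 53 of the 68 channel genes, and the 250 bases before the start were read, taking the start with most CG where several are listed. The 8 genes above the limit on all arrays had a median of 19 CG, the 11 above it on some had 10, and the 34 above it on none had 8.5. On the array as a whole these medians were 18 for 2358 genes and 11 for 3211. Among channels above the limit on all arrays, Kcnma1 (chr14:24004206-24004455, minus strand) had most with 31 and Kcna5 (chr6:126535556-126535805, minus strand) fewest with 3. Among those above it in no pool, Cacna2d1 (chr5:15934441-15934690, plus strand) had most with 36 and Kcna7 (chr7:45405710-45405959, plus strand) fewest with 1, as had Kcnj15 and Kcnmb1. The widest range lay among genes above the limit on some arrays only, from 0 in Kcnk1 to 48 in Cacna1c. CG is in capitals, and each line runs 5′ to 3′.
Kcnma1: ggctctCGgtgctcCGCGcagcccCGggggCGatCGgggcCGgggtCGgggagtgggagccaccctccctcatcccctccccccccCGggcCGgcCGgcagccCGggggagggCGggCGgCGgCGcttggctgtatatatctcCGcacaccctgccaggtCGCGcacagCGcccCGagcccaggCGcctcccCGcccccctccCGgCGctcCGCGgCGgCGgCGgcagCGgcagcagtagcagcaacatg
Kcna5: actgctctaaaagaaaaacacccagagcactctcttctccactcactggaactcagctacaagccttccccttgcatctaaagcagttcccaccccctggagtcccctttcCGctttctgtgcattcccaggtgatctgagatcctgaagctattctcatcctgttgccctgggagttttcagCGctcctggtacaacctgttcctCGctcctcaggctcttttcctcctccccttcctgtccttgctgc
Cacna2d1: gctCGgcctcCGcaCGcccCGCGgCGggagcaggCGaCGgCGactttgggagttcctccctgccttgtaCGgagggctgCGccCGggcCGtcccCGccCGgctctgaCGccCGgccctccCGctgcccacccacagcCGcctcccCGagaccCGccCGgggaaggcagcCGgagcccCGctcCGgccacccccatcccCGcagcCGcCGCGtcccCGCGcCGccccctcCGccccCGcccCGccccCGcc
Kcna7: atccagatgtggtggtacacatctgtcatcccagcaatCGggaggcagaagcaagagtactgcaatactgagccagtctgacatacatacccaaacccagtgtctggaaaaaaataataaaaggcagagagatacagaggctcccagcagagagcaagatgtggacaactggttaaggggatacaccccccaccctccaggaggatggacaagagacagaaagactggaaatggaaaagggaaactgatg
Cacna2d1, with 36 CG, is no brighter than its limit and Kcna5, with 3, exceeds it in every pool, so single genes did not follow the medians. The letters TAATCC, the motif of the photoreceptor factor Crx, were found on either strand of 3 of the 53 channel genes (5.66%), against 6.25% of the array's named genes with a promoter. A match is a description of these windows and not a binding site.

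Genes that work with the channels were read from lists of partners and of other ion transport genes. Of 28 sets for channel partners, such as anchoring and scaffold proteins, 10 (35.7%) were above the limit on every array and 15 (53.6%) nowhere. Over all probe sets these shares were 28.3% and 58.3%, so the partners lay near them. Ank3, which anchors sodium channels at the axon initial segment, read 1931, 1191 and 1385 on 98476_at and 893, 1182 and 1689.8 on 98477_s_at, while no sodium channel set was above background. Ank1 read 1258, 1072 and 1762 on its set 100440_f_at, with its other sets under the limit in pools 2 and 3. Fgf11, a fibroblast growth factor homologue that binds sodium channels, read 911, 699 and 769 on 95377_at, but 193.5, 314 and 176 on 102574_at, under the limit, and Fgf12 was not above background. Of 43 sets for calcium handling and other channels, 7 (16.3%) were above the limit on every array and 32 (74.4%) nowhere. Atp2a2, the calcium pump of the endoplasmic reticulum, read 854, 1338 and 1068, whereas its relatives Atp2a1 and Atp2a3 and the plasma membrane pump Atp2b2 were above it in no pool.

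The kind of sequence a set was designed on was also described. Channel sets designed on expressed sequence tags were above the limit on all arrays in 3 of 13 cases, and those on other named records in 10 of 69. Over the whole array these shares were 38.4% of 4621 sets and 24.6% of 5511 sets.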

How the data were processed

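Total RNA of 3 pools of wild-type retina was hybridised to U74Av2 arrays. The deposited table gives 1 linear intensity per probe set, made by the authors in a way not given in the sources used here. After trimming 2% at each end, the means were 500.3, 500.2 and 500.3, so the values were used as deposited. Symbols came from GEO's platform annotation, updated through RefSeq for all 88 members. The 66 control sets were left out.

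The background limit was the 90th percentile of 94 other-tissue sets. Values below 1 were set to 1 before log2. With 1 group there was no test between groups. The SD, range and shift steps were checked on simulated bright sets. The background limit and the counts above it were not part of that check. Named genes followed a rule: sets above the limit on all arrays, with a range over 1 log2 unit or in disagreement, a written list of retinal and muscle channels, and the sets nearest the limit. Other members were named after their values were seen. The members and lists were chosen with earlier results of these data known. Alternatives changed scaling, limit, floor, probe sets and pools. Python 3.11.15, pandas 2.3.3 and numpy 2.4.6 were used.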

Additional observations from a re-analysis of the deposited data

How the results depend on the processing

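The count of 14 channel sets above the limit on all arrays was 23 with the limit at the 85th percentile and 6 with the sets of a gene averaged, where 68 genes are counted in place of 88 sets. It ranged from 14 to 20 with a pool left out, which cannot lower it. Averaging the sets of a gene also reduced those with a range over 1 log2 unit from 4 to 1, and leaving out a pool gave 1 to 2, as fewer arrays narrow a range by construction. Median scaling multiplies an array by a single factor and so cannot change the first count. Quantile scaling can change calls next to the limit, but it left the first count at 14. Both left the second at 4. A limit common to all arrays, chosen after seeing the data, gave 15. The sodium channels had no set above the limit on all arrays under these or the other limit, floor and pool settings, but 2 of the 8 exceeded it on some array at the 85th percentile. The 61 sets above it on no array ranged from 55 to 69 over settings with 88 sets, and were 47 or 49 of 68 genes and 52 of 72 plain sets. The median SD ranged from 0.18 to 0.34. The lean toward pool 3 ranged from 0.09 to 0.19, that of pool 2 from -0.19 to -0.02 and that of pool 1 from -0.13 to 0.06, changing sign. A switch to another other-tissue list was not run, since a single list was used. No paired analysis was possible because there is 1 group. Sets under the limit carry little information on order between pools.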
